A study of Drosophila melanogaster with 4 samples.

Results

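*Lsp2*, *Fbp1* and *Fbp2*, the genes of larval serum and fat body proteins measured here, were among the most strongly displaced transcripts on single arrays comparing *poly* mutant with wild-type *Drosophila* larvae, and their ratios differed widely from array to array. Of the 6 genes in the set, *Lsp1alpha*, *Lsp1beta*, *Lsp1gamma*, *Lsp2*, *Fbp1* and *Fbp2*, 3 had a probe named here (*Lsp2*, CG6806; *Fbp1*, CG17285; and *Fbp2*, CG3763), each 1 probe, among 11907 named genes. The 3 *Lsp1* subunit genes are not analysed here. Membership was set by gene name and not by a threshold on the ratios, although earlier results of these arrays were known when the set was drawn up.

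The fat body is the main tissue of intermediary metabolism in a fly larva, holding fat, glycogen and protein. During the last larval instar it synthesizes large amounts of storage proteins, the hexamerins LSP1 (assembled from alpha, beta and gamma subunits) and LSP2 (a hexamer of a single subunit), and secretes them into the haemolymph. Before pupation the fat body takes these proteins back up, and their amino acids are used to build adult tissues. Fbp1, itself related to the hexamerins, is the fat body receptor through which LSP1 is recovered, and its gene responds to the moulting hormone ecdysone. Fbp2 is a fat body protein of the short-chain dehydrogenase family and is related in sequence to alcohol dehydrogenase.

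RNA came from whole larvae early in the third instar. The mutant carried *poly05137*, a P-element insertion in the intron of *poly*. Its labels give the genotype as *poly05137*/TM6B, that is, with the TM6B balancer, and the sources used here leave unstated whether the RNA came from homozygotes. The wild-type was Canton S, which the labels also give as the background of both genotypes, and stocks were kept at 25 degrees Celsius. Each of 4 arrays held 1 separately numbered RNA sample of each genotype, with *poly* RNA in Cy5 on replicates 1 and 2 and in Cy3 on replicates 3 and 4, so a value is a log2 ratio of *poly* over wild-type within an array. The study calls the arrays biological replicates. In RNA of whole larvae, fewer cells of a type and less RNA per cell cannot be told apart, and a ratio gives no level, so markers could not be used to check the tissue.

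The targeted gene was lower in the mutant on each array. *poly*, listed under its current symbol *Elp6*, had log2 ratios of −1.49, −1.57, −1.69 and −1.79 on replicates 1 to 4. The mean was −1.63 ± 0.13 (SD, n = 4; adjusted p = 0.0109, limma). The arrays differed in spread, with a median absolute deviation of 0.35 on replicate 3 and of 0.20, 0.25 and 0.26 on replicates 1, 2 and 4. Over all 14569 probes the log2 ratios correlated with a Pearson r between −0.183 (replicates 2 and 3) and 0.619 (replicates 1 and 2). These are correlations across probes, which are not independent replicates. The same direction on the 4 arrays was seen for 26.2% of probes.

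None of the 3 genes passed the test of *poly* against wild-type (limma, Benjamini–Hochberg adjusted p under 0.05 over all probes), where 349 of 14569 probes did, or 2.4% in either direction (1.13% lower and 1.26% higher). At an unadjusted p under 0.05, 2341 probes (16.1%) passed, *Fbp2* among them. The largest SD of any probe that passed was 1.22, and each of the 3 genes varied more than that between arrays.

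*Lsp2*, which encodes the LSP2 hexamerin, was lower in *poly* mutants on 1 array and higher on the other 3. Its log2 ratio was −3.48 on replicate 1, 1.53 on replicate 2, 3.43 on replicate 3 and 1.12 on replicate 4. Replicate 1 thus had 11.2-fold less *Lsp2* RNA in the mutant and replicate 3 had 10.8-fold more. The mean of 0.65 ± 2.93 (SD, n = 4; 95% interval −2.29 to 3.59; adjusted p = 0.869, limma) did not differ from 0 beyond the spread of the arrays. On replicate 1 only 4 probes of 14569 lay lower, and on replicate 3 only 13 lay higher. The 4 lower probes were *nol*, CG15741, CG7377 and CG33267, which were lower in the mutant on all 4 arrays and passed the test, unlike *Lsp2*.

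A further probe, listed under CG11538, had almost the same ratios as *Lsp2*. CG11538 is given in the RefSeq annotation as an older name of an antisense RNA, asRNA:CR11538, that overlaps *Lsp2*, and also as an older name of *Lsp2* itself. This probe had log2 ratios of −3.27, 1.18, 3.36 and 0.88 on replicates 1 to 4 and differed from the *Lsp2* probe by between −0.21 and 0.35 on an array. Its mean was 0.54 ± 2.77 (SD, n = 4; adjusted p = 0.889, limma). The labelled DNA was copied by random priming from double-stranded cDNA and kept no strand, so signal from *Lsp2* and from its antisense partner cannot be told apart. The probe was considered after its values were seen. The reversal between replicates 1 and 3 was thus read by both probes. Whether their oligonucleotides share sequence was not tested.

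*Fbp1*, the gene of the LSP1 receptor, departed from 0 on 2 arrays, in opposite directions. Its log2 ratio was −2.34 on replicate 1, −0.12 on replicate 2, 5.22 on replicate 3 and −0.18 on replicate 4. The value on replicate 3 is a 37.2-fold excess in the mutant, and only 3 probes lay higher on that array. On replicates 2 and 4 the ratio was within the middle of all probes, with 40.9% and 30.8% of probes lower. The mean was 0.64 ± 3.22 (SD, n = 4; 95% interval −2.59 to 3.87; adjusted p = 0.887, limma), and the median of the 4 arrays was −0.15, of the opposite sign. A mean of 0.64 for *Fbp1* is thus made by 1 array, and without replicate 3 it was −0.88 (adjusted p = 0.436, limma).

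*Fbp2* was strongly higher in the mutant on 3 arrays and close to 0 on the other. Its log2 ratio was −0.13 on replicate 1, 3.62 on replicate 2, 3.19 on replicate 3 and 3.43 on replicate 4. These 3 high values are excesses of 12.3-fold, 9.11-fold and 10.8-fold in the mutant, and they came from both dye orientations. On replicate 4, 1 probe lay higher, on replicate 2, 10 probes, and on replicate 3, 41 probes. On replicate 1, by contrast, 9696 of the 14569 probes were higher. The mean was 2.52 ± 1.78 (SD, n = 4; 95% interval 0.73 to 4.32), with an unadjusted p of 0.0154 and an adjusted p of 0.169 from limma. *Fbp2* therefore did not pass, although 3 of 4 arrays placed it among the most elevated transcripts. The annotation also lists a protein-coding gene, CG42847, that overlaps *Fbp2*, and its signal could not be separated here.

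**Figure D1:**
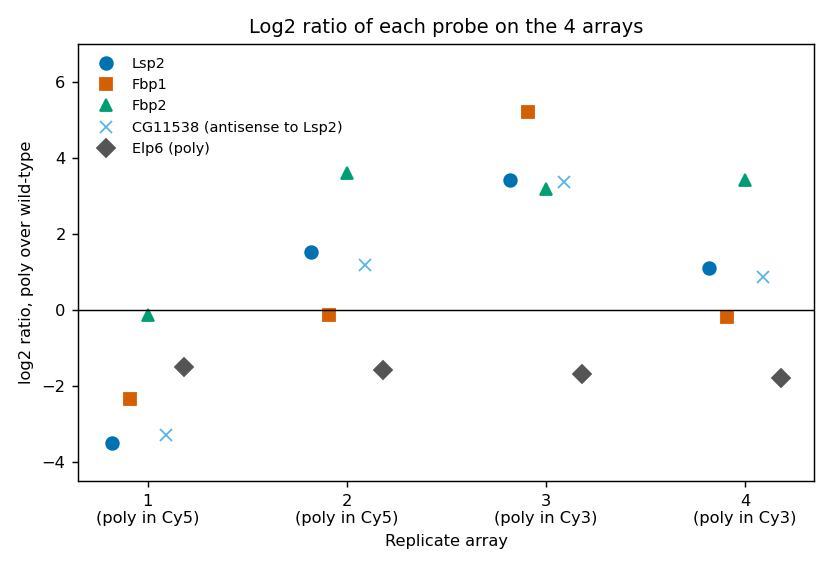
Log2 ratio of *poly* over wild-type (vertical axis) on each replicate array (horizontal axis, with the dye of *poly* RNA), 1 point per probe and array. *Elp6* lies between −1.79 and −1.49 on the 4 arrays, while *Lsp2* and CG11538 run from below −3 on replicate 1 to above 3 on replicate 3, *Fbp1* reaches 5.22 on replicate 3, and *Fbp2* lies above 3 on replicates 2, 3 and 4.

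The spread between arrays set these genes apart from most probes. Ordered by the SD of the 4 ratios, *Fbp1* ranked 2 and *Lsp2* ranked 3 of 14569 probes, with the CG11538 probe at 6, and the probe ranked 1 is unnamed here. *Fbp2* ranked 237. The median SD of all probes was 0.30. A share of 1.22% of probes (178) lay above 2 on 1 array and below −2 on another, as *Lsp2* and *Fbp1* did. These ranks describe the arrays and were not tested.

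**Figure D2:**
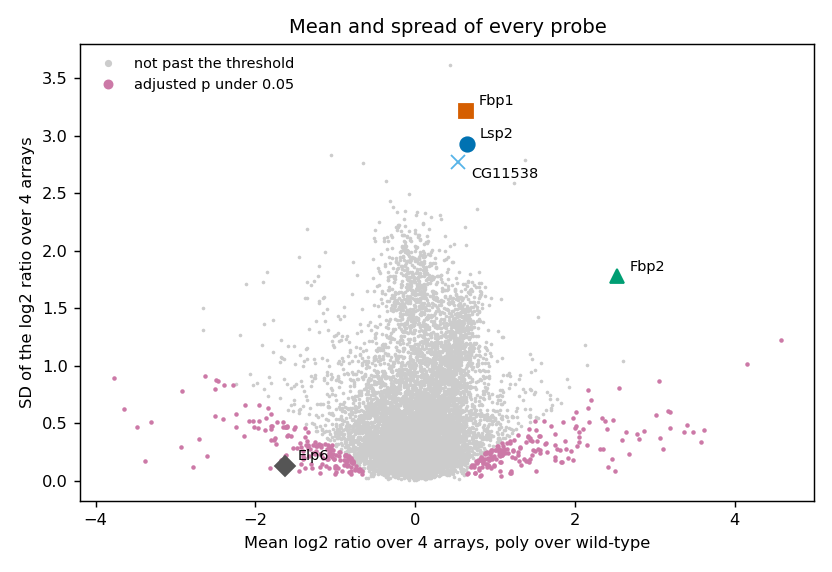
Mean log2 ratio (horizontal axis) and SD over the 4 arrays (vertical axis) for each of 14569 probes, with the probes that passed limma's test in pink. *Fbp1* and *Lsp2* lie near the top with means of 0.64 and 0.65, *Fbp2* has a mean of 2.52 with an SD of 1.78, and no probe in pink has an SD above 1.22.

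Arrays of the same dye orientation also disagreed. Replicates 1 and 2, both with *poly* in Cy5, differed by 5.01 for *Lsp2*, and no probe on the arrays differed more between them (median size over all probes 0.19). For *Fbp2* the same arrays differed by 3.75, with 3 probes larger, and for *Fbp1* by 2.22, with 170 probes larger. Replicates 3 and 4, both with *poly* in Cy3, differed by −5.39 (replicate 4 minus replicate 3) for *Fbp1*, with 3 probes larger, and by −2.31 for *Lsp2*, with 552 probes larger. For *Fbp2* they differed by 0.24, less than the median size of 0.41 over all probes. *Elp6* differed by −0.08 between replicates 1 and 2 and by −0.10 between replicates 3 and 4.

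The difference between the orientations was tested with a dye term in limma. The mean log2 ratio of *Lsp2* was −0.97 with *poly* in Cy5 and 2.27 with *poly* in Cy3, a difference of −3.25 (95% interval −8.87 to 2.37; adjusted p = 0.522). That of *Fbp1* was −1.23 and 2.52, a difference of −3.75 (95% interval −9.69 to 2.18; adjusted p = 0.507). That of *Fbp2* was 1.74 and 3.31, a difference of −1.57 (95% interval −5.40 to 2.27; adjusted p = 0.626). None passed, and neither did any other probe (0 of 14569, or 0.0%; 1339 at an unadjusted p under 0.05). These intervals are wide enough to hold both no difference and a difference of several log2 units.

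Leaving out single arrays moved the means of *Lsp2* and *Fbp1* across 0 and left that of *Fbp2* positive. Without replicate 1 the mean of *Lsp2* was 2.03 (95% interval 0.59 to 3.46; adjusted p = 0.323, limma) and without replicate 3 it was −0.28 (adjusted p = 0.925). *Fbp1* had a mean of 1.64 without replicate 1 (adjusted p = 0.734). The mean of *Fbp2* lay between 2.16 and 3.41 over the 4 ways to leave out 1 array. It was 3.41 without replicate 1 (95% interval 2.95 to 3.87; unadjusted p = 2.93e-05 and adjusted p = 0.113, limma), where no probe on the arrays passed the adjusted threshold (0 of 14569; 1529 at an unadjusted p under 0.05). Under the other treatments of the arrays none of the 3 genes passed either. The shares of probes that passed, lower and higher, were then 0.508% and 0.7% with a dye term, 1.06% and 1.0% with median centring, and 1.02% and 0.618% with arrays scaled to one spread. They were 4.91% and 4.86% with array weights, 0.988% and 1.1% with a robust prior, and 1.12% and 1.62% without replicate 3. With probes averaged per gene they were 1.22% and 1.34%, and with named probes alone 1.38% and 1.59%. Without replicate 2 or 4, and with replicates 2 and 4 alone, 0 probes passed (1478, 1906 and 1915 at an unadjusted p under 0.05, limma). With replicates 2 and 4 alone, a choice made after the values were seen, the means were 1.32 for *Lsp2*, −0.15 for *Fbp1* and 3.52 for *Fbp2*, with adjusted p = 0.167, 0.711 and 0.139 (limma).

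**Figure D3:**
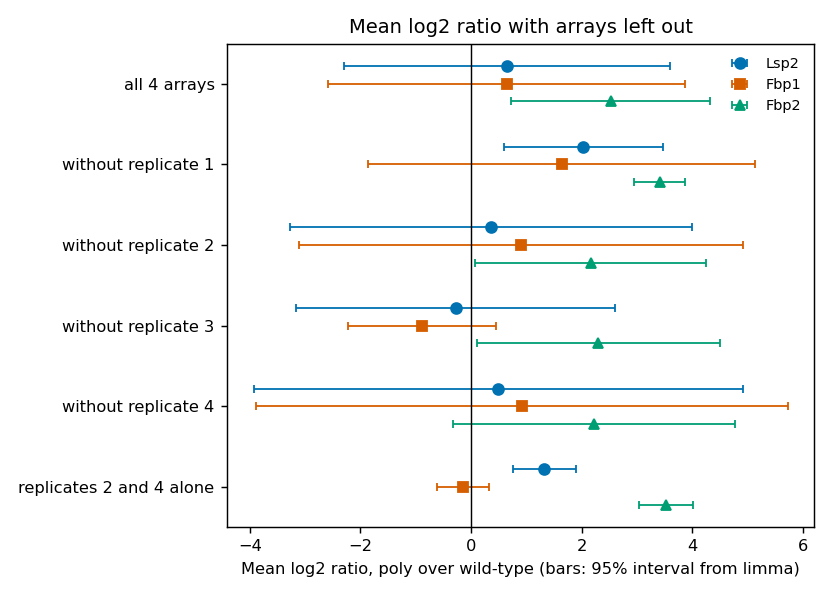
Mean log2 ratio of *Lsp2*, *Fbp1* and *Fbp2* (horizontal axis, bars are 95% intervals from limma) with all 4 arrays, with each array left out and with replicates 2 and 4 alone (vertical axis). *Fbp2* stays between 2.16 and 3.52, while the means of *Lsp2* and *Fbp1* fall below 0 without replicate 3.

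Within an array the 3 genes did not keep one order. *Fbp2* exceeded *Lsp2* by 3.35, 2.08 and 2.31 log2 units on replicates 1, 2 and 4 and lay 0.24 below it on replicate 3 (a difference of −0.24). *Fbp2* exceeded *Fbp1* by 2.21, 3.74 and 3.61 on replicates 1, 2 and 4, with a difference of −2.03 on replicate 3. *Lsp2* minus *Fbp1* was −1.14, 1.66, −1.78 and 1.30 on replicates 1 to 4. These differences are given as a description, with no test.

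The ratios of *Fbp1* and *Lsp2* on replicate 3 stood beside those of the salivary gland glue genes, which ecdysone switches on in the gland later in the same instar. Of 7 glue genes listed, 4 were measured, and all 4 were highest on replicate 3. *Sgs5* had log2 ratios of −0.09, 0.27, 5.55 and −0.21 on replicates 1 to 4, *Sgs4* of −0.09, −0.15, 5.13 and 0.08, and *Sgs1* of −0.25, −0.20, 3.26 and −0.19. *Sgs5bis* had −0.92, −0.17, 2.53 and 0.22. The median of the 4 was −0.17, −0.16, 4.20 and −0.06 on replicates 1 to 4, and none of them passed the test. On replicate 1, where *Lsp2* and *Fbp1* were low, *Sgs1*, *Sgs4* and *Sgs5* were within 0.25 of 0. The age of the larvae within the instar is not among the measurements, and its part in the ratios was not tested.

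**Figure D4:**
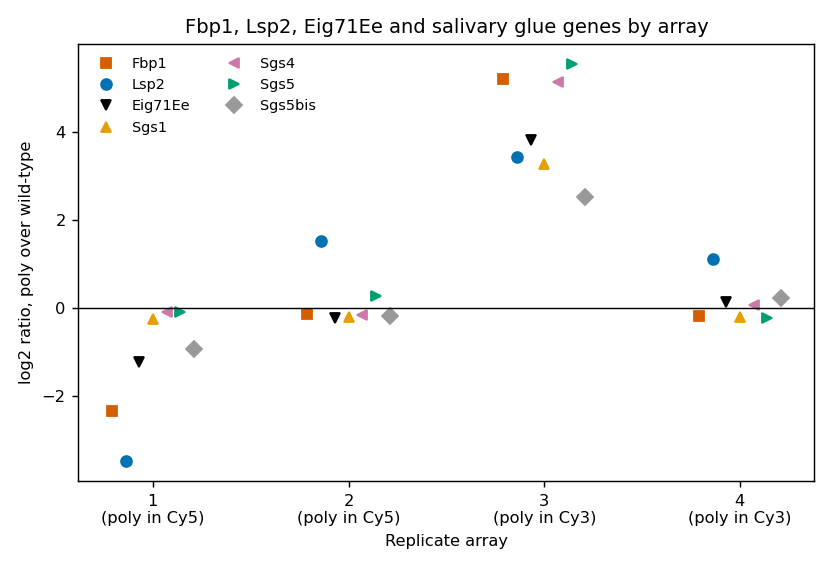
Log2 ratio of *poly* over wild-type (vertical axis) on each replicate array (horizontal axis, with the dye of *poly* RNA) for *Fbp1*, *Lsp2*, *Eig71Ee* and the 4 measured glue genes. On replicate 3 all 7 lie between 2.53 and 5.55, while on replicate 1 *Lsp2*, *Fbp1* and *Eig71Ee* lie at −3.48, −2.34 and −1.23.

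The nearest patterns over the 4 arrays were sought by Euclidean distance between the 4 log2 ratios, as a description. After CG11538 (distance 0.48), the gene nearest to *Lsp2* was CG12715 (2.76), with ratios of −2.36, 0.07, 1.59 and 0.19. The 2 named genes nearest to *Fbp1* were *Eig71Ee* (1.82), an ecdysone-induced gene, with ratios of −1.23, −0.23, 3.82 and 0.13, and *Sgs4* (2.27). The genes nearest to *Fbp2* were CG15281 (1.75), with ratios of 1.31, 3.85, 2.50 and 2.76 (adjusted p = 0.0546, limma), and CG11912 (2.67), with ratios of 1.65, 2.61, 1.59 and 2.82 (adjusted p = 0.0332). Unlike *Fbp2*, both of these were above 1 on replicate 1.

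On the probes given, other genes of the fat body moved less between arrays than the storage protein genes. Of 18 measured genes for proteins that the fat body adds to the haemolymph, 1 rose and 17 did not pass, with a median of −0.07 against 0.04 over all named genes. That is 1 of 18 where 1.26% of all probes rose, and 6 of 18 had an unadjusted p under 0.05, as 16.1% of all probes did. Of these 6, *Mtp* (−0.98) and *fon* (−1.23) had means below 0, and the rest above 0. Here and in the lists below, a gene with several probes counts by its probe of smallest p. Such counts can therefore run above a share over all probes. *Idgf1*, a secreted growth factor related to chitinases, rose, with a mean log2 ratio of 1.05 and an SD of 0.22 over the 4 arrays (adjusted p = 0.0329, limma), with 1.03, 0.84, 1.36 and 0.97 on replicates 1 to 4. *Fer2LCH*, a ferritin light chain, had 0.78 ± 0.32 and did not pass (adjusted p = 0.0874). The lipoprotein gene *apolpp*, whose product carries lipid from the fat body, had −0.16, 0.04, −1.68 and 0.13 on replicates 1 to 4. It was lowest on replicate 3, where *Lsp2* and *Fbp1* were highest. On replicates 2 and 4, where *Lsp2* had 1.53 and 1.12, *apolpp* was not low. The largest SD in this list was 1.15 (*Spn27A*), below those of the 3 storage protein and fat body genes but above the median of 0.30 over all probes.

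Of 16 measured genes of fat body metabolism, 2 fell and 14 did not pass, with a median of −0.19. Of all probes 1.13% fell, and 7 of the 16 had an unadjusted p under 0.05 against 16.1% of all probes. Of these 7, *Pepck1* (1.43 ± 0.56) and *Desat1* (0.67 ± 0.25) were above 0 on 4 of 4 arrays, and the rest had means below 0. *Gpdh1*, which links glycolysis to glycerol lipid synthesis, fell, with a mean log2 ratio of −1.51 and an SD of 0.45 (adjusted p = 0.037, limma). This is the probe of smallest p, and with the probes of *Gpdh1* averaged the mean was −0.86 (adjusted p = 0.0466, limma). *Lsd-1*, a perilipin of the lipid droplet, fell to −1.24 ± 0.31 (adjusted p = 0.0332). Both were lower on all 4 arrays, with *Gpdh1* between −2.16 and −1.10 and *Lsd-1* between −1.60 and −0.85. With a dye term neither passed (adjusted p = 0.057 and 0.0652), and *Idgf1* did not either (adjusted p = 0.0571). *Lsd-2*, also a perilipin, had −0.06 ± 0.40 (adjusted p = 0.936, limma). The largest SD among these metabolism genes was 1.05 (*ACC*, with −1.81, −1.56, 0.15 and 0.08 on replicates 1 to 4).

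None of 8 measured fat body hormones passed (median 0.10, 1 at an unadjusted p under 0.05), nor did any of 15 regulators of fat body genes (median −0.06, 4 at an unadjusted p under 0.05). Of all probes 16.1% had such a p. Of those 4 regulators *sug* alone had a mean above 0 (0.41). Another of the 4, *br*, had −0.65, −0.61, 0.02 and −0.37 on replicates 1 to 4 (unadjusted p = 0.0446, limma). *Eip75B*, *Eip74EF* and *Hr4*, also listed as regulators, had no probe named here. Among the regulators *EcR* and *usp*, which form the ecdysone receptor, had means of 0.02 ± 0.20 and −0.06 ± 0.15, and *srp*, a GATA factor needed for the fat body, had 0.09 ± 0.15. *Hr38* and *Hr39*, both nuclear receptors, had −0.63 ± 0.18 (adjusted p = 0.0756) and −0.38 ± 0.12 (adjusted p = 0.167). Among the hormones *ImpL2*, whose product binds insulin-like peptides, had 0.60 ± 0.17 (adjusted p = 0.0780) and *sun*, a ligand of the receptor Methuselah, 0.24 ± 0.18 (adjusted p = 0.432). With probes averaged per gene, *ImpL2* had 0.54, *Hr38* −0.51 and *Hr39* −0.42 (adjusted p = 0.192, 0.158 and 0.367, limma). *Hr39*, counted among the 4 regulators above, then had an unadjusted p of 0.0691 (limma). On the probes given, none of these regulators or hormones showed the swing of *Lsp2* or *Fbp1*, since the largest SD was 1.00 among the regulators and 0.65 among the hormones. Taking the probe of smallest p can favour a small SD, and *Lsp2* and *Fbp1* had no such choice, with 1 probe each.

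Storage proteins that return to the fat body are taken up by endocytosis and broken down in lysosomes. Of 8 measured genes of these steps none passed, with a median of 0.26 and 4 at an unadjusted p under 0.05 (16.1% of all probes). Of these 4, *AP-2alpha* had a mean below 0 (−0.30), and the rest above 0. The cathepsins *CtsB* and *CtsL1*, lysosomal proteases, had 0.81 ± 0.25 (adjusted p = 0.0590, limma) and 0.86 ± 0.29 (adjusted p = 0.0638), each above 0 on 4 of 4 arrays. *CtsB* did pass with median centring (adjusted p = 0.0488), scaled arrays (0.0436) and array weights (0.0179), and *CtsL1* with array weights (0.0185). Of the sequence relatives, *Adh*, related to *Fbp2*, had 0.06, 0.33, −1.80 and −0.42 on replicates 1 to 4 and did not follow *Fbp2*. The prophenoloxidases *PPO1*, *PPO2* and *PPO3*, distant relatives of the hexamerins, had means of −0.92, −0.27 and 0.11, and none of these 4 relatives passed (0 at an unadjusted p under 0.05). *PPO3* had ratios of 0.13, −1.91, 2.16 and 0.05 on replicates 1 to 4, and its SD of 1.66 was the largest of these relatives. *PPO1* had −2.39, −0.63, −0.81 and 0.16. *PPO3* and *PPO1* thus also differed between arrays, *PPO1* being lowest on replicate 1 and *PPO3* highest on replicate 3.

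**Figure D5:**
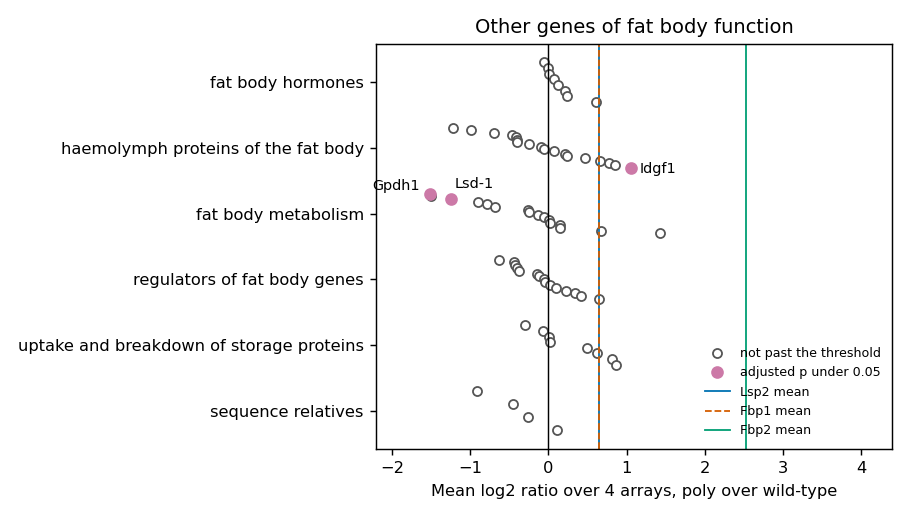
Mean log2 ratio over the 4 arrays (horizontal axis) for each measured gene of 6 lists (vertical axis), filled where the adjusted p from limma was under 0.05. The lists are those of fat body function and that of the sequence relatives. The filled points are *Idgf1* at 1.05, *Lsd-1* at −1.24 and *Gpdh1* at −1.51, and the mean of *Fbp2* at 2.52 lies to the right of all the points.

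Markers of other cell types of the larva were read beside these ratios, although *vkg* of the haemocyte list is made by the fat body as well. Whether the other markers, *Col4a1* among them, are also made by the fat body was not checked. None of 5 measured muscle genes passed (medians −0.53, −0.21, −0.60 and −0.09 on replicates 1 to 4), none of 10 gut genes (0.22, 0.25, 0.24 and 0.67), none of 3 genes of Malpighian tubules (0.01, −0.05, 0.21 and −0.06) and none of 4 neuronal genes (−0.05, −0.11, −0.02 and 0.15). At an unadjusted p under 0.05 there were 3, 3, 0 and 1 of these, against 16.1% of all probes. The 3 muscle genes and the neuronal gene had means below 0, and the 3 gut genes had means above 0. With probes averaged per gene, *Tm2* of these muscle genes and *nSyb*, the neuronal gene, no longer had such a p. Their means were then −0.24 and −0.29, with unadjusted p = 0.0917 and 0.0744 (limma). Within the gut list *alphaTry*, a trypsin, had ratios of 2.74, 3.20, 0.96 and 1.71 on replicates 1 to 4 (mean 2.15, adjusted p = 0.0765, limma). *Mal-A1*, a maltase, had 2.19, 2.41, 1.00 and 1.17 (mean 1.69, adjusted p = 0.0653). Both were above 0 on 4 of 4 arrays, and both passed with a dye term (adjusted p = 0.0407 and 0.0298) and with array weights (0.00911 and 0.00897). The 7 haemocyte genes had medians of −0.61, −0.15, −0.12 and 0.13 on replicates 1 to 4. Of these genes 1 rose, against 1.26% of all probes, and 6 did not pass. The gene that rose was *NimC1*, a phagocytic receptor of plasmatocytes, to 1.50 ± 0.52 (adjusted p = 0.0492, limma). Its call was lost under 8 of 12 alternatives (adjusted p from 0.00799 to 0.247 over the 12). At an unadjusted p under 0.05 there were 3 of the 7, against 16.1% of all probes. Besides *NimC1* these were *vkg* (−1.22 ± 0.56) and *Col4a1* (−1.06 ± 0.89), both with means below 0 (adjusted p = 0.0803 and 0.244, limma). Single genes of these 5 lists ranged from −2.05 (*vkg* on replicate 3) to 3.20 (*alphaTry* on replicate 2). Whether the makeup of the larvae has a part in the ratios of *Lsp2*, *Fbp1* and *Fbp2* was not tested.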

How the data were processed

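RNA from whole larvae (5 µg of total RNA, of which 500 ng of cDNA was labelled) was hybridized to long-oligonucleotide 2-colour arrays. The authors used Dapple for spot quantification and vsn for normalization, which shrinks the ratios of dim spots, and deposited a log2 ratio for each of 14569 probes. Spot filters are unstated, and intensities were not used here, so the number of arrays limits the precision. Ratios were read as *poly* over wild-type without change of sign, since *Elp6* is then lower on each array in both dye orientations. Probe names came from the platform annotation, updated to RefSeq (assembly Release 6, for names and overlaps only): 12657 have 1 symbol.

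Each probe's ratios were tested against 0 with limma 3.58.1 (lmFit, eBayes, two-sided) in R 4.3.3, with Benjamini–Hochberg adjustment over all probes. A gene with several probes is given by that of smallest p. This choice can raise the number of listed genes with a small p against the share over all probes. It can also favour probes of small SD. The fit was tested on simulated data with independent normal noise of each probe's SD. It found 41.5%, 73.0% and 94.0% of log2 ratios of 1, 2 and 4, and 0.0%, 70.0% and 91.0% of dye terms of 1, 2 and 4. A dye term of 1 is a difference of 2 between the orientations. Such noise lacks the links between probes and the single far-out arrays seen here, so the simulation does not describe those cases. The study calls the arrays biological replicates. The labels name no separate cultures, and p-values measure the spread between these arrays. The members, lists and tests were chosen with earlier results of these data known. Named genes are the members, *Elp6*, the genes of each list that passed (or the 2 of smallest p) and the 2 genes nearest each member; *Sgs1*, *Sgs5bis* and other examples were added after their values were seen. Alternatives were a dye term, centring, scaling, array weights, a robust prior, averaged probes, named probes only, and arrays left out.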

Additional observations from a re-analysis of the deposited data

Results flagged for a closer look

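*Fbp2* on replicate 1 (−0.13) stood apart from its 3 other arrays, the gap being 0.886 of the whole range of the 4 values. Among the 31 genes examined in this way 4 further values stood apart, all on replicate 3: *Sgs5* (5.55), *Sgs4* (5.13), *Sgs1* (3.26) and *vkg* (−2.05), a collagen IV chain made by fat body and haemocytes. Chance sets about 1 in 20 genes apart by this criterion, but the glue genes were chosen with their values known, so the number found is not read against that rate. *Lsp2* and *Fbp1* did not meet it, because 2 of their arrays, replicates 1 and 3, lay far out on opposite sides.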

How the results depend on the processing

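The mean of *Fbp2* kept its direction, from 2.14 to 3.52, and stayed short of the threshold under 12 alternatives (adjusted p from 0.113 to 0.470). *Lsp2* and *Fbp1* also never passed. Their means turned to −0.33 and −0.70 with array weights (weights of 2.10, 2.44, 0.289 and 0.675 for replicates 1 to 4, so replicate 3 counts least) and ranged over −0.28 to 2.03 and −0.88 to 1.64 when 1 array was left out, with −0.15 for *Fbp1* on replicates 2 and 4 alone. With scaled arrays they were 0.18 and 0.11. The dye orientation difference ranged over −5.75 to −0.74 for *Lsp2*, −6.45 to −1.06 for *Fbp1* and −3.44 to 0.31 for *Fbp2* when 1 array was left out. 

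Over all probes, 165 were lower and 184 higher, against 74 and 102 with a dye term, 90 higher with scaled arrays, and 715 and 708 with array weights. Counts ranged from 0 to 163 lower and 0 to 236 higher when 1 array was left out, and were 0 and 0 on replicates 2 and 4 alone. Over the gene lists, 2 genes were lower and 2 higher. There were 0 lower with a dye term, 1 lower with median centring, 1 higher with a robust prior, and 11 and 14 with array weights. They numbered 0 to 3 lower and 0 to 4 higher with 1 array left out, and 0 and 0 on replicates 2 and 4 alone. *NimC1* was lost with median centring (adjusted p = 0.0684), scaled arrays (adjusted p = 0.101) and a robust prior (adjusted p = 0.0535), *Gpdh1* with median centring (adjusted p = 0.0514). Without replicate 3 *NimC1* was lost (adjusted p = 0.0567), and *Idgf1*, *Lsd-1*, *Gpdh1* and *NimC1* were all lost without replicate 1, 2 or 4 and on replicates 2 and 4 alone (adjusted p from 0.116 to 0.247). Calls were gained by *Mal-A1* and *alphaTry* with a dye term, *CtsB* with median centring, *CtsB* and *vkg* with scaled arrays, *Fer2LCH*, *vkg* and *alphaTry* without replicate 3, and *ImpL2*, *Fer2LCH*, *Hr38*, *CtsB*, *CtsL1*, *vkg*, *Mal-A1* and *alphaTry* with array weights (adjusted p from 0.00897 to 0.0488). With probes averaged *Gpdh1* moved from −1.51 to −0.86.

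Of genes that did not pass, array weights turned CG11538 (−0.44), *Sgs1* (−0.035) and *Sgs5bis* (−0.26). With 1 array left out they ranged over −0.40 to 1.81 for CG11538, −0.011 to 1.91 for *Sgs5*, −0.052 to 1.71 for *Sgs4*, −0.21 to 0.96 for *Sgs1*, −0.29 to 0.86 for *Sgs5bis* and −0.035 to 0.077 for *NtR*, each below 0 without replicate 3. On replicates 2 and 4 alone *Sgs4* (−0.034), *Sgs1* (−0.19) and *NtR* (−0.089) turned, and *NtR* also with median centring (−0.0034) and scaled arrays (−0.0022). The cause was not tested. Each ratio sets the 2 genotypes of 1 array against each other, so the test of the ratios is itself paired and no further replicate block could be fitted.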

Other observations

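The probe with the largest SD of all (3.62) is unnamed here, and its ratios of −3.31, 0.02, 5.38 and −0.37 on replicates 1 to 4 lay at a distance of 1.00 from those of *Fbp1*, closer than any named gene. On replicate 3, 13 probes lay above *Lsp2*. Of these, *Ugt37A3*, CG1304, *Cyp28a5*, *Cyp9b2* and CG11893 were above 2.5 on all 4 arrays, whereas *Sgs4*, *Sgs5*, *Eig71Ee* and *Fbp1* were above 0.5 on replicate 3 alone.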
